A study of Homo sapiens with 6 samples.

Results

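The clustered protocadherins are 53 protein-coding genes of chromosome 5, chosen by symbol from the GENCODE 29 annotation and found in all 6 samples among the 58302 genes measured. The alpha cluster holds 15 of them, PCDHA1 to PCDHA13 with PCDHAC1 and PCDHAC2. The beta cluster holds 16 genes, PCDHB1 to PCDHB16. The gamma cluster holds 22, made up of 12 of the A type (PCDHGA), 7 of the B type (PCDHGB) and PCDHGC3, PCDHGC4 and PCDHGC5. In the hg38 build the members span 140786136 to 141012347 (alpha), 141051135 to 141249365 (beta) and 141330571 to 141512981 (gamma), all on the plus strand. SK-N-BE(2) is an established human neuroblastoma cell line with high MYCN expression. RNA was sequenced from 3 samples transfected with a negative control siRNA (NC) and 3 with an siRNA against Prp19 (siPrp19), a ubiquitin ligase and splicing factor encoded by PRPF19. The labels place the collection at 72 h after transfection, while the methods of the study give another time. All 6 samples are of this one line, and the results describe that line. The question asked of the protocadherins was which of them the cells expressed and how each differed between siPrp19 and NC within same-numbered pairs.

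Protocadherins are cadherin-type cell adhesion proteins of the nervous system. In neurons, each cell switches on a small set of clustered genes, and the resulting combination of proteins at the surface lets branches of one neuron recognise and avoid each other. Every alpha and gamma gene has its own promoter and a long variable first exon encoding the extracellular domain, which is spliced to short constant exons shared by the whole cluster and encoding the cytoplasmic end. Beta genes lack such constant exons, and the coding sequence of each lies in a single exon. The C-type genes (PCDHAC1, PCDHAC2, PCDHGC3, PCDHGC4 and PCDHGC5) sit next to the constant exons and are used by many neurons rather than chosen at random. Promoter choice is known to involve CTCF and cohesin, which bind promoters and enhancers of the clusters, and DNA methylation.

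The annotation followed this layout. Every alpha member carried the same 3 constant blocks of 59, 89 and 2718 bases, together 2866 bases, ending at 141012344. Every gamma member carried blocks of 59, 89 and 2033 bases, together 2181 bases, ending at 141512979. All 16 beta genes formed 1 exon block, although 11 also had an annotated 2-exon transcript. A value is given as FPKM, fragments per kilobase of exon, scaled to a fixed number of mapped fragments. Since constant exons count toward the length of an alpha or gamma gene but their reads cannot belong to a single gene, these FPKM understate the variable exons relative to beta genes. Levels were therefore also expressed per kilobase of exon that no other gene overlaps, called the unshared scale.

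Most members had the 4 letters CGCT shortly upstream of their start. The sequences are shown first because CGCT was found both in members that were expressed and in members that were barely detected. The sequences come from RefSeq (GRCh38.p14), where 47 of the 53 members had an entry. PCDHA3, PCDHA13, PCDHB6, PCDHB11, PCDHGA12 and PCDHGC5 had none. Each line gives bases upstream of the RefSeq start on the plus strand, stopped before the annotated exon, with every CGCT in capitals. The first 6 members had a mean of at least 1 FPKM.

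PCDHA8 (chr5:140841087-140841186): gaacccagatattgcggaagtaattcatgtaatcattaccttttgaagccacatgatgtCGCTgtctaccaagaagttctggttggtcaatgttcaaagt
PCDHA10 (chr5:140855797-140855882): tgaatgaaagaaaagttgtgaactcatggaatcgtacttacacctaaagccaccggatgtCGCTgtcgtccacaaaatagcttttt
PCDHB4 (chr5:141121718-141121798): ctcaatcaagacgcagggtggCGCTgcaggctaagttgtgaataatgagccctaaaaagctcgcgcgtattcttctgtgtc
PCDHB10 (chr5:141192253-141192352): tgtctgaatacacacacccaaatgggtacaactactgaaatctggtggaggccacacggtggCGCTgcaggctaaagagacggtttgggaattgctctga
PCDHGC3 (chr5:141475866-141475946): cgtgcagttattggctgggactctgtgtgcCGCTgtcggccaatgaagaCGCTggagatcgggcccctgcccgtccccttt
PCDHGC4 (chr5:141484930-141484996): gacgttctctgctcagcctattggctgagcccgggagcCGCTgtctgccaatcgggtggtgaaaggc

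The next 4 members had lower levels, PCDHB13 a mean of 0.582 FPKM, PCDHB8 0.243, PCDHB3 0.108 and PCDHGA10 0.0887.

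PCDHB3 (chr5:141100373-141100472): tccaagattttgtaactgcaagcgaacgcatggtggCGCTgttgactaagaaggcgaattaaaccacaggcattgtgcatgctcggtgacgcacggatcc
PCDHB13 (chr5:141213819-141213918): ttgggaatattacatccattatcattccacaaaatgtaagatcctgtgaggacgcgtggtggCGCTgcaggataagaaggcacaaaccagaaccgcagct
PCDHGA10 (chr5:141412887-141412986): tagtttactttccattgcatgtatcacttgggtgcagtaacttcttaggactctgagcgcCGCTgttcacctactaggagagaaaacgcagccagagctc
PCDHB8 (chr5:141177690-141177789): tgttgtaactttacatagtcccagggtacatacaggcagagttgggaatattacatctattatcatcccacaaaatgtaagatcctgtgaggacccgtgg

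CGCT was found on the gene strand within 100 bases upstream of the start in 44 of 47 members, or 93.6%, against 28.1% of the 35116 promoters in the table. Counting the reverse complement AGCG as well, the shares were again 44 members and 44.8% of all promoters. PCDHA9, PCDHB8 and PCDHGB2 had no match in this window. For PCDHA9 and PCDHGB2 the RefSeq start lay 919 and 94 bases inside the annotated gene, so the window fell wholly or mostly in annotated exon. The windows of the matched members PCDHA11, PCDHAC2, PCDHB1, PCDHB14, PCDHB16 and PCDHGA8 also fell in annotated exon. In all of these, the presence or absence of CGCT may not describe the promoter. All 12 matched members with a mean of at least 1 FPKM held CGCT, and so did all 13 matched members with a mean under 0.2 FPKM. With only 4 letters, a match alone does not show that a promoter holds a conserved element. The letters before CGCT differed in frequency between subfamilies. GGCGCT was present in 12 of 14 beta and 2 of 7 PCDHGB members, and in 4.90% of all promoters. GTCGCT was present in 10 of 11 members of the PCDHA1 to PCDHA13 type and in 1.43% of all promoters. GTCGCT was also present in 5 of 11 PCDHGA, 2 of 14 beta and 1 of 4 C-type members, and so is not particular to the alpha genes. GCCGCT was present in 6 of 11 PCDHGA, 5 of 7 PCDHGB and 2 of 4 C-type members, against 4.55% of all promoters. These 3 longer motifs all contain CGCT, and were searched on the gene strand. The nearest match started 8 to 95 bases before the start, with a median of 47.5 bases. In PCDHA7, PCDHB2 and PCDHB4 that match, at -16, -13 and -20, reached into annotated exon. Another match in each of these genes lay further upstream, at -81, -55 and -79.

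**Figure D1:**
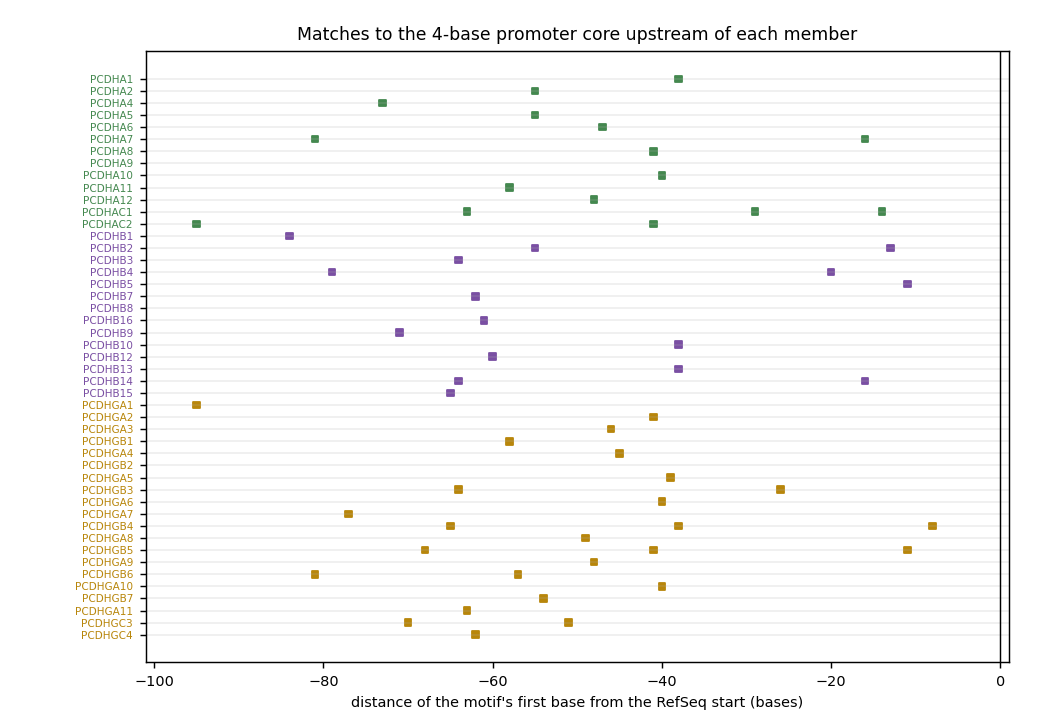
Position of each CGCT match on the gene strand in the 100 bases upstream of the RefSeq start, for the 47 members with an entry. Each square is 1 match, coloured by cluster (green alpha, purple beta, gold gamma). Nearest matches lie 8 to 95 bases before the start, and the rows of PCDHA9, PCDHB8 and PCDHGB2 are empty.

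Depth bounds what can be said about these genes. Reads on matched genes came to between 19058782 and 24181789 per sample, and the FPKM of all 53 members converted to whole reads. The reads of a member ranged from 0 for PCDHGB5 in NC replicate 2 to 2400 for PCDHGC3 in siPrp19 replicate 3. The knockdown was visible in the targeted gene: PRPF19 had 53.1, 53.1 and 64.9 FPKM in NC and 21.8, 28.5 and 33.6 FPKM in siPrp19. Mean PRPF19 levels were 57.0 ± 6.83 (SD, n = 3) and 27.9 ± 5.91, with no overlap, and the exact two-sided permutation test gave p = 0.10, the smallest value 3 against 3 samples allow. All 8 adrenergic neuroblastoma markers were expressed, with MYCN at a mean of 1016 FPKM, while PTPRC, PECAM1 and CD68, which mark leukocytes, endothelium and macrophages, had means under 0.1 FPKM. EPCAM and COL1A1, markers of epithelium and fibroblasts, had means of 1.86 and 40.3 FPKM.

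PCDHGC3 was the most abundant clustered protocadherin, followed on the deposited FPKM scale by PCDHB4, PCDHB16, PCDHAC2 and PCDHGC4. On the unshared scale PCDHGC3 again came first, with a mean of 21.4, and the same 4 genes followed in another order, PCDHAC2 (6.42), PCDHGC4 (5.10), PCDHB16 (4.97) and PCDHB4 (4.77). Averaged over all 6 samples, 13 of the 53 members reached 1 FPKM, namely 5 alpha, 6 beta and 2 gamma genes. PCDHGC3 alone held 23.8% of the summed FPKM of the family, the 5 highest members 50.9% and the 13 together 76.9%. On the unshared scale 18 members reached a mean of 1, the 5 additions being PCDHA2, PCDHA3, PCDHA12, PCDHB15 and PCDHGB2. The order of members was similar in all samples, with Spearman's rho between pairs of samples from 0.912 to 0.960 over the 53 genes, which share libraries and lengths and are not independent. A selection of different members in different single cells cannot be told apart from uniform low expression in these bulk samples, nor can fewer expressing cells from less RNA per cell.

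**Figure D2:**
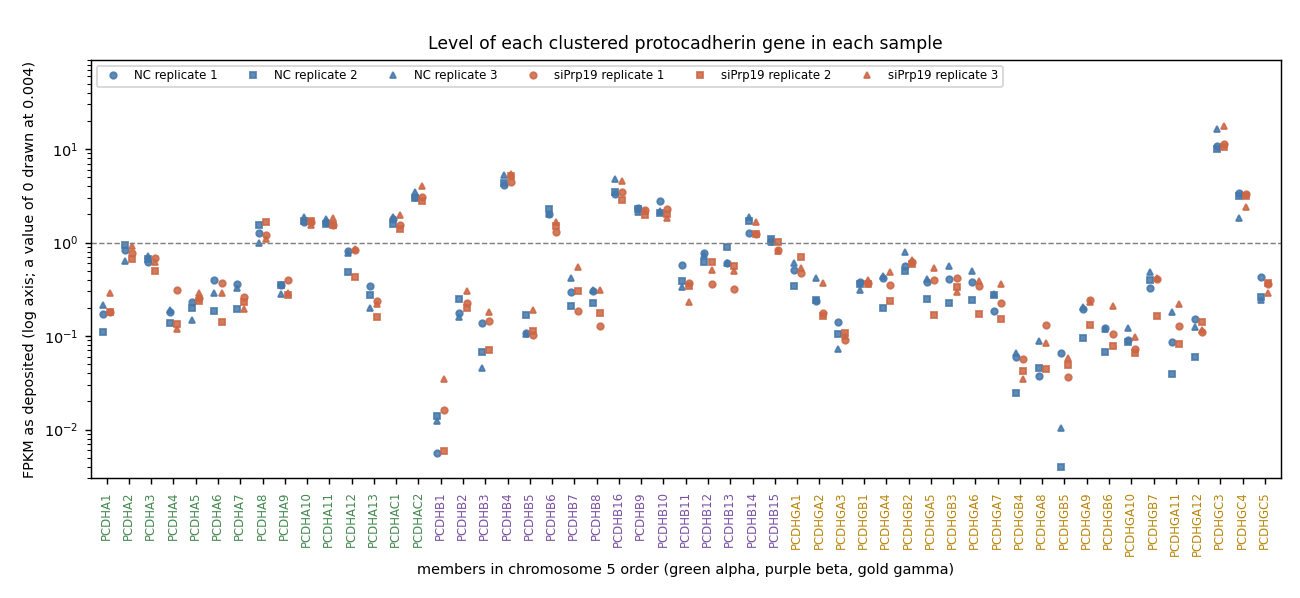
FPKM as deposited (log axis) of each of the 53 members in each of the 6 samples, in chromosome order, with NC in blue and siPrp19 in orange and marker shape for the replicate number. The dashed line is 1 FPKM, 13 members have a mean above it, and PCDHGC3 is the highest in every sample.

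Among the C-type genes, PCDHGC3 measured 10.8, 9.98 and 16.4 FPKM in NC and 11.4, 10.5 and 17.8 FPKM in siPrp19. Both replicate 3 samples were above the other 4 whatever the siRNA. PCDHGC4 measured 3.38, 3.15 and 1.83 FPKM in NC and 3.27, 3.15 and 2.41 in siPrp19, with both replicate 3 samples below the rest. PCDHAC2 measured 3.10, 3.02 and 3.5 FPKM in NC and 3.07, 2.78 and 4.02 FPKM in siPrp19. PCDHAC1 had 1.77, 1.57 and 1.86 FPKM in NC and 1.53, 1.39 and 1.97 FPKM in siPrp19. These 2 alpha C-type genes were also highest in replicate 3, and the groups of all 4 genes overlapped. PCDHGC5 was much lower, at 0.423, 0.262 and 0.243 FPKM in NC and 0.362, 0.366 and 0.291 in siPrp19. The mean of PCDHGC3 was 2.68 times that of the next member, PCDHB4, in deposited FPKM and 3.33 times that of the next member, PCDHAC2, on the unshared scale. C-type first exons shared no 100-base stretch with another gene of the clusters. Here and below, shared stretches were searched only among the protocadherin genes and pseudogenes of the clusters. A stretch also counts as shared where the annotation of another gene covers the same bases.

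In the alpha cluster the other members above 1 FPKM were PCDHA10, PCDHA11 and PCDHA8. PCDHA10 measured 1.67, 1.71 and 1.86 FPKM in NC and 1.67, 1.72 and 1.53 FPKM in siPrp19, with overlapping groups. PCDHA11 and PCDHA8 averaged 1.65 and 1.30 FPKM. PCDHA10, PCDHAC1 and PCDHA11 had means within 0.1 FPKM of each other, less than the spread between samples, so their order is not resolved. PCDHA10 takes a long exon in the annotation, and 17.9% of its 100-base windows are also annotated in another gene, mainly PCDHA14. Only 9555 of its 15224 exon bases were overlapped by no other gene, so such windows can be the same bases annotated to both genes. The remaining 10 alpha genes ranged from 0.180 FPKM (PCDHA4) to 0.793 FPKM (PCDHA2), and none was listed at 0.

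In the beta cluster, PCDHB4 measured 4.09, 4.38 and 5.25 FPKM in NC and 4.40, 5.16 and 5.36 FPKM in siPrp19. PCDHB16 measured 3.32, 3.44 and 4.78 FPKM in NC and 3.47, 2.83 and 4.53 FPKM in siPrp19. PCDHB9 measured 2.36, 2.30 and 2.13 FPKM in NC and 2.23, 1.96 and 2.19 FPKM in siPrp19. In each of these 3 genes the groups overlapped. PCDHB10, PCDHB6 and PCDHB14 followed with means of 2.18, 1.80 and 1.49 FPKM, and PCDHB15 lay just under the limit at 0.969. PCDHB9 and PCDHB10 did not differ beyond their spread, and 24.7% of the 100-base windows of PCDHB10 also occur in another gene, mainly PCDHB9. The other 9 beta genes ranged from 0.0147 FPKM (PCDHB1, 1 to 7 reads per sample) to 0.606 FPKM (PCDHB12).

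The gamma cluster was uneven. Its 19 PCDHGA and PCDHGB genes all stayed below 1 FPKM, between 0.0368 (PCDHGB5) and 0.618 (PCDHGB2), with a median of 0.246 and a sum of 4.69 FPKM. PCDHGB2, the highest of them, measured 0.558, 0.50 and 0.795 FPKM in NC and 0.618, 0.585 and 0.651 FPKM in siPrp19, and the groups overlapped. PCDHGB5 was listed at 0 in NC replicate 2, the only member with a 0 in any sample, in a library where PCDHGC3 stood at 9.98 FPKM. Reads of the constant gamma exons were thus not counted into every gamma gene. PCDHGB4 and PCDHGA8 shared 55.3% and 34.8% of their 100-base windows, mainly with each other. The first exon of PCDHGB4, 4725 bases from 141387698, runs past the start of PCDHGA8 at 141390157. Much of this sharing is therefore the same bases annotated to both genes, and their separate levels are uncertain.

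By cluster, alpha, beta and gamma members contributed 25.0%, 36.8% and 38.2% of the summed FPKM on average. On the unshared scale the shares were 31.6%, 26.0% and 42.3%, so beta ranked above alpha only on the deposited scale. Summed gamma FPKM was 20.2 ± 3.72 (SD, n = 3) in NC and 21.2 ± 4.34 in siPrp19, and summed alpha FPKM was 13.5 ± 0.463 and 13.3 ± 1.27. Summed beta FPKM was 19.9, 20.1 and 22.0 in NC against 17.6, 18.1 and 20.8 in siPrp19. The beta sum was thus lower with siPrp19 in each of the 3 pairs, while the groups overlapped, and no test was made on a sum over members.

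No clustered protocadherin passed a false discovery rate (FDR) of 0.05 after PRPF19 knockdown. With limma on log2(FPKM + 0.1) and no term for replicate, 0 of the 13 members tested and 0 of 14462 genes (0.0%) passed, so this fit called nothing anywhere. It missed PRPF19 itself, with a log2 difference of -1.04 and an adjusted p of 0.9999 (0.190 in limma with replicate as a block). An unadjusted p under 0.05 was found for 1 member, PCDHB6, and for 225 genes (1.56%). limma voom on the recovered reads with no replicate term also called 0 of 48 members and 0 of 16953 genes, while 254 genes (1.5%) had an unadjusted p under 0.05. Same-numbered samples deviated together, though differently numbered ones were not compared, and the fit with replicate as a block is given beside it. Voom with the block called 1022 of 16953 genes (6.03%) and 0 of the 48 members with a mean of at least 10 reads. PRPF19 was among the genes called (adjusted p = 3.85e-14, voom with the block). In that fit 3 of the 48 members, PCDHB6, PCDHB12 and PCDHB13, had an unadjusted p under 0.05, against 19.1% of all genes.

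PCDHB6 had 2.04, 2.26 and 2.01 FPKM in NC and 1.29, 1.52 and 1.65 FPKM in siPrp19. Every siPrp19 value was below every NC value, on 96 to 145 reads per sample. The log2 difference of PCDHB6 was -0.48 (SE 0.19, adjusted p = 1.00 in limma with no block, exact permutation p = 0.10). With voom and the replicate block it was -0.49 (95% interval -0.81 to -0.18) with an adjusted p of 0.0505, just outside the limit. Leaving out pair 3 brought the adjusted p of PCDHB6 in voom with the block to 0.0340, while leaving out pair 1 gave 0.404 and pair 2 gave 0.239. Its first exon shared 5.53% of 100-base windows with another gene, mainly PCDHB13.

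PCDHB13 measured 0.607, 0.898 and 0.609 FPKM in NC and 0.322, 0.561 and 0.494 FPKM in siPrp19, also without overlap. Its mean was below the 1 FPKM needed for the limma fit above, and in voom with the block the log2 difference of PCDHB13 was -0.61 (95% interval -1.05 to -0.18, adjusted p = 0.0843). On FPKM with no filter it was -0.53, with an adjusted p of 0.999 in limma with no block and 0.652 with it. PCDHB12 had 0.781, 0.615 and 0.744 FPKM in NC and 0.363, 0.621 and 0.510 FPKM in siPrp19, with 1 siPrp19 value inside the NC range. The voom log2 difference of PCDHB12 with the block was -0.54, with an adjusted p of 0.206, and it was -0.28 without pair 1 and -0.80 without pair 2. PCDHB12 and PCDHB13 were added here after their values were seen.

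Within same-numbered pairs, 7 of the 13 beta members with a mean of at least 10 reads were lower with siPrp19 in 3 of 3 pairs, against 19.8% of all genes. They were PCDHB6, PCDHB8, PCDHB10, PCDHB11, PCDHB13, PCDHB14 and PCDHB15. Of the 15 alpha members 0 did so, and of the 20 gamma members 3 did (PCDHGA2, PCDHGA6 and PCDHGA10). In the opposite direction, higher in 3 of 3 pairs, were 2 alpha members (PCDHA1 and PCDHA5), 1 beta member (PCDHB4) and 3 gamma members (PCDHGA9, PCDHGA11 and PCDHGC3), against 19.5% of all genes. The read filter left out PCDHB1, PCDHB3 and PCDHB5. Over all 16 beta genes, 7 were lower and 2 higher in 3 of 3 pairs, the added one being PCDHB3 on 3 to 15 reads. Some falls were close to 0, with log2 differences of -0.017 for PCDHB8 in pair 3 and -0.035 for PCDHB14 in pair 1. Without pair 1, 2 or 3, 8 of 13 beta members were lower in both remaining pairs, against 27.4%, 29.9% and 32.5% of all genes. These 13 genes come from the same libraries and share sequence, PCDHB8 in 25.7% of its 100-base windows (mainly with PCDHB13) and PCDHB13 in 15.1% (mainly with PCDHB8), so they are not 13 independent observations, and the difference between clusters was not tested.

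**Figure D3:**
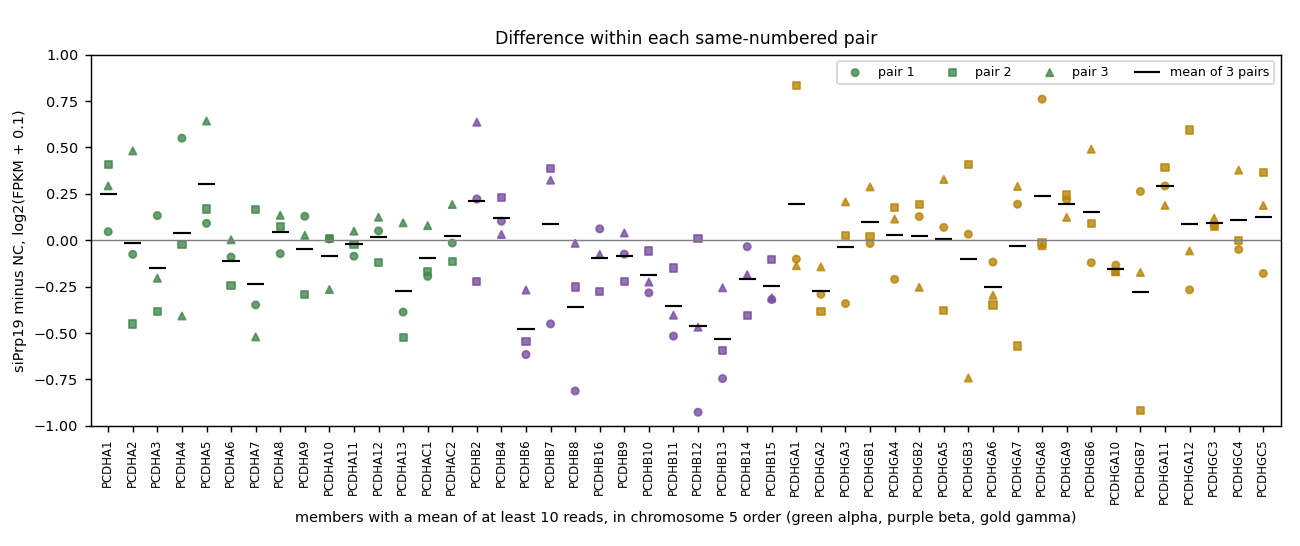
Difference in log2(FPKM + 0.1), siPrp19 minus NC, within each of the 3 same-numbered pairs for the 48 members with a mean of at least 10 reads, in chromosome order, with a bar at the mean of the 3 pairs. Of the 13 beta members (purple), 7 have all 3 points below 0, against 0 of 15 alpha (green) and 3 of 20 gamma members (gold).

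Groups without overlap were few. All siPrp19 values lay below all NC values in 3 of the 48 members with a mean of at least 10 reads, and in 2.81% of all genes. The 3 were the beta members PCDHB6, PCDHB13 and PCDHB15. All siPrp19 values lay above all NC values in 1 of the 48 members, PCDHA5, and in 3.11% of all genes. PCDHB15 measured 1.05, 1.1 and 1.02 FPKM in NC and 0.822, 1.02 and 0.803 FPKM in siPrp19, and PCDHB15 gave -0.27 in voom with the block (adjusted p = 0.459). PCDHA5 measured 0.232, 0.20 and 0.149 FPKM in NC and 0.254, 0.237 and 0.289 FPKM in siPrp19 on 21 to 51 reads, and gave 0.42 in voom with the block (adjusted p = 0.452). Both genes were named after their values were seen, and neither difference passed a test.

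Among members above 1 FPKM, PCDHB14 and PCDHB10 had the largest mean falls within pairs after PCDHB6, but neither passed a test. PCDHB14 measured 1.27, 1.68 and 1.88 FPKM in NC and 1.24, 1.25 and 1.64 FPKM in siPrp19. PCDHB10 measured 2.77, 2.09 and 2.15 FPKM in NC and 2.26, 2.00 and 1.83 FPKM in siPrp19. In both genes the groups overlapped although each pair was lower, and limma with no block gave log2 differences of -0.21 (SE 0.25) for PCDHB14 and -0.19 (SE 0.19) for PCDHB10. Leaving out 1 sample moved these by more than 1.5 times, PCDHB14 between -0.36 (without NC replicate 1) and -0.09 (without NC replicate 3), and PCDHB10 between -0.27 (without siPrp19 replicate 1) and -0.06 (without NC replicate 1). The largest mean rises within pairs were those of PCDHB4, PCDHGC4 and PCDHGC3, at 0.12, 0.11 and 0.09 on the log2 scale. Their 95% intervals in limma with no block were -0.25 to 0.49, -0.53 to 0.75 and -0.55 to 0.73. With the block in voom, the interval of PCDHGC3 narrowed to -0.04 to 0.22 and that of PCDHB4 to -0.08 to 0.31.

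The median log2 difference with limma and no block was -0.02 over the 5 alpha, -0.14 over the 6 beta and 0.10 over the 2 gamma members tested, beside -0.004 over all 14462 genes. With voom and the block the medians were -0.02 (15 alpha), -0.22 (13 beta) and 0.09 (20 gamma), beside 0.001 over all genes. The gamma median in that fit was 0.14 without pair 1, 0.003 without pair 2 and -0.016 without pair 3, so its direction was not stable, and the alpha median ranged from -0.06 to 0.03. Single-exon protein-coding genes were also counted, since the coding sequence of each beta gene lies in 1 exon. The likeness is partial, as 11 of the 16 beta genes also have an annotated 2-exon transcript. With limma and no block, 134 of 267 single-exon genes tested lay below 0 (51.0% of all genes did), with a median of -0.001. In voom with the block 14 of 314 such genes passed the FDR as lower and 10 as higher, beside 3.7% and 2.32% of all genes.

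Differences by replicate number were widespread among all genes and were not particular to these members. Both replicate 3 samples lay above the other 4 in 18 of 48 members against 23.7% of all genes, and 10 of these 18 were gamma genes. Both lay below in 3 members, PCDHA8, PCDHB11 and PCDHGC4, against 22.0% of all genes. PCDHGC3 averaged 17.1 FPKM in replicate 3 and 10.7 FPKM in the others, a log2 difference of 0.68. PCDHGC4, its neighbour in the gamma cluster, averaged 2.12 and 3.24 FPKM, a log2 difference of -0.60. PCDHB16 averaged 4.66 and 3.26 FPKM. The adrenergic gene DBH, encoding dopamine beta-hydroxylase, had 3.49 and 3.94 FPKM in the replicate 3 samples and 26.7 to 44.2 FPKM in the others, so more than protocadherins moved with that number. Whether the cultures differed in state was not tested.

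**Figure D4:**
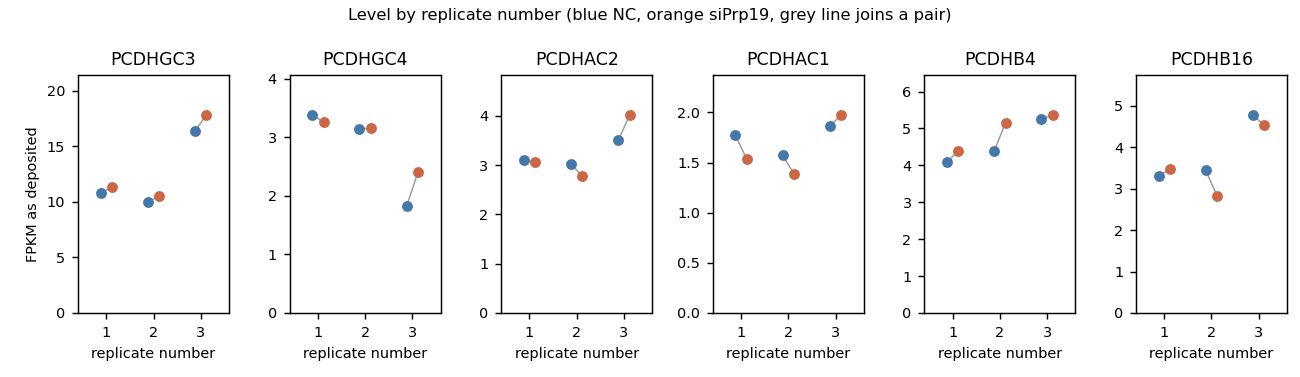
FPKM as deposited by replicate number for 6 abundant members, with NC in blue, siPrp19 in orange and a grey line joining each same-numbered pair. PCDHGC3 stands at 16.4 and 17.8 FPKM in replicate 3 and at 9.98 to 11.4 FPKM in the other samples, while PCDHGC4 is lowest in replicate 3.

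Genes that flank or lie between the clusters gave a local comparison. Of 20 such neighbours 16 were tested with limma and 0 passed the FDR, with log2 differences from -0.13 (NDUFA2, a subunit of respiratory complex I) to 0.31 (PCDH1). In voom with the block 1 of 15 passed, beside 6.03% of all genes. It was PCDH1, a non-clustered protocadherin downstream of the gamma cluster, which had 9.90, 7.98 and 9.58 FPKM in NC and 12.7, 10.2 and 11.2 FPKM in siPrp19. PCDH1 rose by 0.31 on the log2 scale in that fit (adjusted p = 0.00237, voom with the block), and missed the limit without pair 1 (0.0919).

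The non-clustered protocadherins are encoded singly outside the clusters. Of 11 listed, 6 were tested with limma with 0 past the FDR, and of 8 tested with voom and the block, 3 rose and 0 fell, beside 2.32% and 3.7% of all genes. Besides PCDH1 they were PCDH9, with 2.63, 3.26 and 2.82 FPKM in NC and 3.37, 4.39 and 3.16 FPKM in siPrp19, and PCDH10, with 1.13, 1.62 and 0.707 FPKM in NC and 1.66, 2.43 and 0.912 FPKM in siPrp19. PCDH9 and PCDH10 were higher in each pair, although the groups overlapped. Their log2 differences in voom with the block were 0.32 for PCDH9 (adjusted p = 0.00072) and 0.53 for PCDH10 (adjusted p = 0.00180). PCDH10 missed the limit without pair 2 (0.0596), and PCDH9 passed with each pair left out in turn. PCDH18 had the lowest limma difference of the list, -0.04. Whether non-clustered and clustered genes differ in response was not tested.

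Regulators and partners of the clusters were all expressed. Of 20 chromatin regulators, including CTCF at a mean of 18.2 FPKM and the cohesin subunit RAD21 at 51.0 FPKM, 0 passed the FDR with limma. In voom with the block 2 of the 18 tested passed, both lower, beside 3.7% of all genes that passed as lower. REST, a repressor of neuronal genes, had 4.40, 5.81 and 4.41 FPKM in NC and 2.85, 4.07 and 3.38 FPKM in siPrp19. The groups did not overlap, and REST fell by 0.51 on the log2 scale in voom with the block (adjusted p = 5.22e-05). DNMT1, the maintenance DNA methyltransferase, had 23.4, 20.6 and 32.9 FPKM in NC and 19.5, 18.8 and 29 FPKM in siPrp19. DNMT1 was lower in each pair although the groups overlapped widely, with a log2 difference of -0.19 (adjusted p = 0.0205, voom with the block), and missed the limit without pair 1 (0.365) or pair 2 (0.0625). The highest limma difference of this list was that of SETDB1, a histone methyltransferase, at 0.17. Of 17 processing and signalling partners, among them the shedding protease ADAM10 and subunits of gamma-secretase and of the WAVE complex, 0 passed in either fit. In voom with the block 6.03% of all genes passed. Limma differences of these partners ran from -0.15 (PSEN2) to 0.30 (PTK2B).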

How the data were processed

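SK-N-BE(2) RNA-seq libraries (3 NC, 3 siPrp19) were grouped by the treatment label. The authors deposited FPKM per Ensembl gene. Their processing notes name HISAT2 2.0.5, featureCounts 1.5.0-p3 and hg38; annotation release, strand and multi-mapping settings are not given in the sources used here. The kit does not mark strand, so reads of overlapping antisense genes cannot be told apart. Members and lists were chosen with earlier results of these data known. With GENCODE 29 exon lengths, FPKM gave whole reads (tolerance 0.05 read) for 97.3% of 58039 matched genes, of which 20518 were at 0 in every sample. The others, including CTCF, DBH and GATA3, were left out of voom. limma 3.58.1 (R 4.3.3) with trend was fitted to log2(FPKM + 0.1) of the 14462 genes averaging 1 FPKM or more. Alternatives were voom on genes with a mean of at least 10 reads, with or without a replicate block, pseudocount 1, other filters, TPM and leaving out samples. p-values were two-sided and Benjamini-Hochberg adjusted over all genes tested. Deviations from the group means of same-numbered samples correlated (r = 0.381, 0.568 and 0.639), and same-numbered samples were taken as pairs. Differently numbered samples were not correlated, so these values do not show which samples belong together. The study describes its replicates as biological. Named genes were PRPF19, the 3 highest members per cluster, the C-type members, any member past FDR 0.05, the 3 largest mean rises and falls within pairs among members of at least 1 FPKM, and the extremes and calls of each other list.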

Additional observations from a re-analysis of the deposited data

How the results depend on the processing

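Depth limits the low members: 14 of 53 had a mean under 0.2 FPKM, and FPKM hide reads shared between near-identical genes. The count of members past FDR 0.05 was 0 with no filter, a mean of at least 5 FPKM (PCDHGC3 alone tested, so no alpha or beta median), pseudocount 1, TPM, the limma replicate block, voom with and without the block, and each sample left out (0 to 0). The count over all genes stayed at 0 in the limma alternatives and in voom with no block. It was 1022 in voom with the replicate block, which treats same-numbered samples as pairs. Alternatives added after seeing the data left each pair out of that fit and gave 249, 594 and 1265 genes without pair 1, 2 and 3, with 1 member (PCDHB6) only without pair 3. The block in limma moved the adjusted p of PCDHB6 to 0.238, still outside the limit, and changed no call among the members. The beta median was -0.27 without pair 2 in voom with the block. The gamma median of that fit changed sign without pair 3 (-0.016). With single samples left out of limma, medians ranged from -0.10 to 0.018 (alpha), -0.19 to -0.09 (beta) and 0.05 to 0.14 (gamma). The log2 difference of PCDHGC3 ranged from -0.14 to 0.31 and reversed without NC replicate 2 (-0.05) or siPrp19 replicate 3 (-0.14), and that of DNMT1 ranged from -0.39 to 0.0049 and reversed without NC replicate 3. The cause was not tested. On the unshared scale the alpha, beta and gamma shares moved to 31.6%, 26.0% and 42.3%, by its construction.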
